A study of Mus musculus with 19 samples.

Results

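The genes of prostaglandin and leukotriene synthesis described here are Ptgs1, Ptgs2, Ptges, Tbxas1, Hpgd, Alox5, Alox5ap, Lta4h, Ltc4s and Alox15. They were taken as a list of 10 symbols, and every annotated probe of each was used. In all, 9 of the 10 genes had a probe that could be tested, among 9523 genes tested on the array. Ptgs1, the constitutive cyclooxygenase, had no annotated probe and was not analysed here. The 9 genes had 12 annotated probes, and each gene is represented by its brightest probe unless another is named.

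RNA of mouse neutrophils was measured on 19 Illumina BeadChip arrays, each carrying 25697 probes, with 1 preparation per array. Naive neutrophils from bone marrow are called NN (n = 7). Splenic neutrophils of mice that carried a tumour are called G-MDSC, for granulocytic myeloid-derived suppressor cells (n = 4), and neutrophils from the tumour itself are called TAN (n = 3, replicates 1, 2 and 4). SM16 stands for tumour neutrophils taken after treatment with SM16, a kinase inhibitor of Alk5, a receptor for TGF-beta (n = 5). The labels used here give no strain, age, tumour line, dose or control treatment, and TAN is not described as vehicle-treated. Nothing in them ties a preparation to an animal of its own. The spread behind each p-value is thus that among preparations and may be technical. NN differs from TAN and SM16 in tissue of origin as well as in the presence of a tumour. The comparisons ask how the arachidonic acid pathway of neutrophils differs between marrow, spleen and tumour, and how it differs in the tumour once Alk5 is inhibited.

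Prostaglandins and leukotrienes are short-lived lipid signals made from arachidonic acid that phospholipases free from membranes. Cyclooxygenases turn it into prostaglandin H2, from which terminal synthases make prostaglandin E2, thromboxane A2 and others, and 15-hydroxyprostaglandin dehydrogenase inactivates prostaglandins. 5-lipoxygenase, helped by its activating protein, makes leukotriene A4, which is hydrolysed to the neutrophil attractant leukotriene B4 or joined to glutathione to give the cysteinyl leukotrienes. Neutrophils are known as a source of leukotriene B4, and eosinophils, mast cells and macrophages as sources of cysteinyl leukotrienes.

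Levels below are log2 intensities after background correction and quantile normalization, and a probe counts as detected on an array where its detection p lay under 0.01. A difference is the first group's mean level minus the second's. It was called at an adjusted p under 0.05 (limma, Benjamini-Hochberg adjustment over 9523 genes, 2-sided). Levels of different probes are not compared with each other. An array of TAN had 9599 to 10773 detected probes, and one of another group 10660 to 12492. The number of arrays limits the precision.

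Several properties of the arrays touch these results. TAN replicates 1 and 2 stood apart: TAN replicate 4 correlated with the SM16 arrays at 0.964 to 0.976 across genes, and TAN replicates 1 and 2 at 0.842 to 0.891. By lowest signal the arrays also fell into 2 sets. One, at 10.3 to 17.7, held the G-MDSC group together with replicates 6 and 7 of NN, and the remaining 13 arrays had 47.5 to 65.5. The labels do not name these sets, and only NN lies in both, so a difference between G-MDSC and a tumour group cannot be told apart from one between sets except through NN. The neutrophil marker S100a8 was detected on all 19 arrays, at a mean level of 15.57 to 15.81 in each group. Other neutrophil markers were not as even. Of the 11 tested, 9 were called lower and 0 higher than NN in TAN, and 8 lower and 0 higher in SM16. In G-MDSC 5 were lower and 2 higher. Of all genes 30.0%, 31.7% and 23.5% were called lower in TAN, SM16 and G-MDSC, and 39.3%, 32.9% and 22.5% higher. Markers of other cells varied between groups. The summed intensity of 8 tested macrophage markers (of 12 listed) was 5981 to 12722 in NN, 6694 to 8720 in G-MDSC, 19525 and 25288 in TAN replicates 1 and 2, 73618 in TAN replicate 4 and 86120 to 146619 in SM16. That of 8 tested eosinophil, basophil and mast cell markers (of 11) was 17612 to 32370 in NN, 208 to 1075 in G-MDSC, 127 to 280 in TAN and 120 to 373 in SM16. For 7 platelet markers (of 9) the sum was 19794 to 45086 in NN, 198 to 285 in G-MDSC, 5382 to 7803 in TAN and 11449 to 17812 in SM16, and for 11 neutrophil markers (of 12) 463905 to 495338, 381308 to 409988, 199875 to 232288 and 200906 to 279984 in the same order. Over 5 fibroblast and mesothelium markers (of 9) it was 77.0 to 162 in NN, 34.6 to 44.7 in G-MDSC, 560 to 1190 in TAN and 689 to 1356 in SM16. All 5 were called higher than NN in both tumour groups, as were 39.3% of all genes in TAN and 32.9% in SM16. Endothelial markers (5 of 7) summed to 615 to 1808 in NN, 392 to 536 in G-MDSC, 105 to 398 in TAN and 551 to 1323 in SM16. Dendritic cell markers (3 of 7) summed to 25.8 to 51.1, 283 to 1139, 302 to 821 and 65.6 to 105 in that order of groups. Monocyte markers (3 of 5) summed to 27632 to 34333, 4108 to 12139, 3497 to 15536 and 10757 to 24431 in the same order. Although that sum was highest in NN, 2 of the 3 monocyte markers were called higher and 1 lower than NN in each other group. Of all genes 45.9%, 69.3% and 64.5% were called in G-MDSC, TAN and SM16 minus NN. The part of any of these lists in the results below was not tested. In such bulk samples, fewer cells of a type and less RNA per cell cannot be told apart.

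Against naive marrow neutrophils, tumour neutrophils carried more mRNA for the inducible cyclooxygenase Ptgs2, the leukotriene C4 synthase Ltc4s and, by its brightest probe, the thromboxane synthase Tbxas1. They carried less for the prostaglandin-degrading enzyme Hpgd, the leukotriene A4 hydrolase Lta4h and the lipoxygenase Alox15. Of the 9 genes, 7 were called in TAN minus NN, 3 higher and 4 lower, where 69.3% of all genes tested were called, 39.3% higher and 30.0% lower. In SM16 minus NN all 9 were called, 3 higher and 6 lower, against 64.5% of all genes (32.9% higher, 31.7% lower). In G-MDSC minus NN 7 were called, 3 higher and 4 lower, against 45.9% (22.5% higher, 23.5% lower). Changes were therefore common across the array, and the counts by themselves do not set these genes apart. The median absolute difference over the 9 genes was 1.73, 2.05 and 0.92 in the 3 comparisons, against 0.87, 0.72 and 0.46 over all genes. The genes were chosen with earlier results of these data known, so this contrast does not set them apart either. In SM16 minus TAN 2 of the 9 were called, both lower (Ptgs2 and Ptges), against 46.0% of all genes (17.8% higher, 28.2% lower), and the median absolute difference was 0.21 against 0.52. In TAN minus G-MDSC 7 were called (4 higher, 3 lower) against 63.2% of all genes (37.6% higher, 25.6% lower), and in SM16 minus G-MDSC 8 (3 higher, 5 lower) against 62.4% (32.7% higher, 29.8% lower). A lack of overlap between groups was also common. It held for 6, 8 and 5 of the 9 genes in TAN, SM16 and G-MDSC minus NN, against 51.8%, 54.1% and 38.3% of all genes. In TAN and SM16 minus G-MDSC it held for 7 and 8, against 49.6% and 54.7%. For SM16 minus TAN it held for 2, against 23.6%. Such a lack by itself does not set a gene apart. The comparisons share groups and are not independent.

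**Figure D1:**
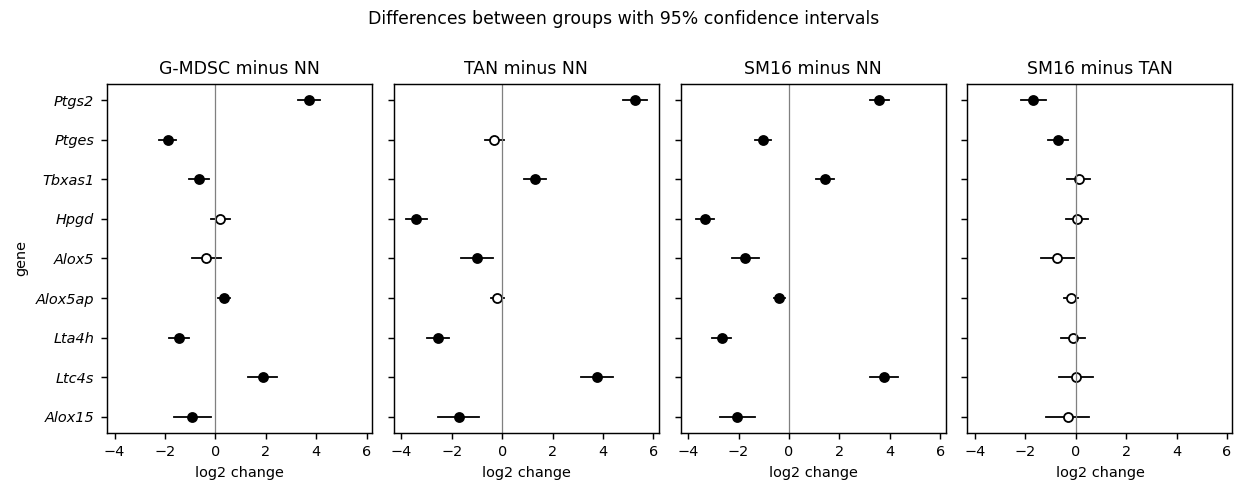
Difference in log2 level between groups for the 9 measured genes, in 4 comparisons; points are limma estimates, lines their 95% confidence intervals, and filled points differences called at an adjusted p under 0.05. Where a group was undetected (Ptgs2 in NN, Ptges in G-MDSC, Hpgd and Alox15 in TAN and SM16) a point is a fitted value and no bound. Ptgs2 and Ltc4s lie to the right of 0 in all 3 comparisons with NN, and Ptgs2 and Ptges are the filled points in SM16 minus TAN.

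The sequences upstream of the 4 genes with the largest differences from NN are shown for context: Ptgs2 and Ltc4s, which rose in all 3 groups from tumour-bearing mice, Lta4h, which fell in all 3, and Hpgd, which was not detected in tumour neutrophils. Each is the 250 bases before the start of the gene in RefSeq, assembly GRCm38.p6, read 5′ to 3′ on the gene's strand, and capitals mark matches to the motifs named below. RefSeq windows were matched for 8 of the 10 genes.
Ptgs2 (chr1:150099781-150100030, plus strand): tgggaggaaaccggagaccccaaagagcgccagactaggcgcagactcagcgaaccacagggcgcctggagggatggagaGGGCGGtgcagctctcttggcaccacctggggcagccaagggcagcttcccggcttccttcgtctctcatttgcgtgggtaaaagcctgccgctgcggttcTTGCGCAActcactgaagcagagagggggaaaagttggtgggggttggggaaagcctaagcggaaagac
Ltc4s (chr11:50238533-50238782, minus strand): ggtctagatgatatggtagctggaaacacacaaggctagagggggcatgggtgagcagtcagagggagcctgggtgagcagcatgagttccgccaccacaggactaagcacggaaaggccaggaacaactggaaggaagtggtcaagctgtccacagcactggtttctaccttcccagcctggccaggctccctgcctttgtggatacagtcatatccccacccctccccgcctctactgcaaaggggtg
Lta4h (chr10:93453146-93453395, plus strand): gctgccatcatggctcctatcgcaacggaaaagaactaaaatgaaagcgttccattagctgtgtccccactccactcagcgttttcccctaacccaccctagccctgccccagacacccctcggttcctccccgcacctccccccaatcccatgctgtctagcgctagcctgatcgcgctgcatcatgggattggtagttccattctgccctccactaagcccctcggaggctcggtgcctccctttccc
Hpgd (chr8:56294302-56294551, plus strand): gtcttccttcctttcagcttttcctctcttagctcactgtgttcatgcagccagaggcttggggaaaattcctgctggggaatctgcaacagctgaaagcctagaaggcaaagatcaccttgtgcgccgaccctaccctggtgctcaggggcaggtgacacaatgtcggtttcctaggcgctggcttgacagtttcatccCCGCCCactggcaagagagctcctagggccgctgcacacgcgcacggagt

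In these windows 6 motifs were searched on both strands: TATAA (TATA box), CACGTG (E-box), CGTCA (cAMP response half-site), TTNNGCAA (C/EBP-like), GGGCGG (GC box) and TGANTCA (AP-1). The Ptgs2 window held a C/EBP-like match at bases -69 to -62 from the start, which reads the same on both strands, and a GC box at -170 to -165. The Hpgd window held a GC box on the opposite strand at -50 to -45. Neither the Ltc4s nor the Lta4h window held a match, which says only that these letters are not in the 250 bases shown. Over 32851 RefSeq windows of this length, 9.56% held the C/EBP-like motif and 32.7% the GC box, while the TATA box, E-box, cAMP half-site and AP-1 motif were in 22.8%, 6.02%, 17.8% and 6.75%. GC content was 61.6% for Ptgs2, 57.6% for Ltc4s, 58.8% for Lta4h and 56.8% for Hpgd, where the median window had 52.4%. CpG counts were 13, 3, 11 and 9 in the same order, against a median of 6. A match is a description of the letters, not of a bound site.

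Ptgs2, the inducible cyclooxygenase, was the gene of this list with the largest difference from NN. It was not detected on any of the 7 NN arrays, whose levels ran from 4.47 through a median of 4.61 to 4.90. The 4 G-MDSC arrays read 9.24, 7.89, 8.28 and 8.06, the 3 TAN arrays 9.80, 9.98 and 9.99, and the 5 SM16 arrays 7.95, 8.12, 8.51, 8.30 and 8.32. All arrays from tumour-bearing mice lay above all NN arrays, and all TAN arrays lay above all others. Since NN was undetected, the difference is given as a bound, the bright group's mean over the lowest detectable level on the dim arrays: Ptgs2 was at least 22.3-fold higher in TAN (adjusted p = 8.45e-14, limma), at least 7.59-fold in G-MDSC (adjusted p = 7.80e-12) and at least 6.94-fold in SM16 (adjusted p = 1.21e-12). Here and below, a p-value beside such a bound is that of the fitted difference, and the bound includes no sampling error.

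After SM16, Ptgs2 was lower than in TAN by 1.68 ± 0.24 (SE) on the log2 scale, a 3.21-fold difference with no overlap between 5 and 3 arrays (limma adjusted p = 4.02e-05). With TAN replicate 4 as the only TAN array the difference was -1.76, so it did not rest on the TAN arrays that stood apart, and it stayed called under each alternative run, between -1.76 and -1.45. TAN also lay above G-MDSC by 1.55 ± 0.25 (limma adjusted p = 2.45e-05). SM16 and G-MDSC were not told apart (difference -0.13, 95% confidence interval -0.58 to 0.32, limma adjusted p = 0.622), and the sign turned to 0.16 without G-MDSC replicate 1, the highest of its group. The order of means was therefore NN, then SM16 and G-MDSC, then TAN. The summed dendritic cell markers were also lowest in NN (25.8 to 51.1), then SM16 (65.6 to 105), and higher in G-MDSC (283 to 1139) and TAN (302 to 821). G-MDSC replicate 1 was at the top of its group in both measures. Within TAN the sums were 806, 821 and 302 on replicates 1, 2 and 4, where Ptgs2 read 9.80, 9.98 and 9.99. In TAN minus G-MDSC 0 of the 3 tested dendritic cell markers were called, where 63.2% of all genes were. Of these 3 markers, 2 were called lower and 0 higher in SM16 minus TAN, where 28.2% of all genes were called lower and 17.8% higher. Their part in the Ptgs2 values was not tested.

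**Figure D2:**
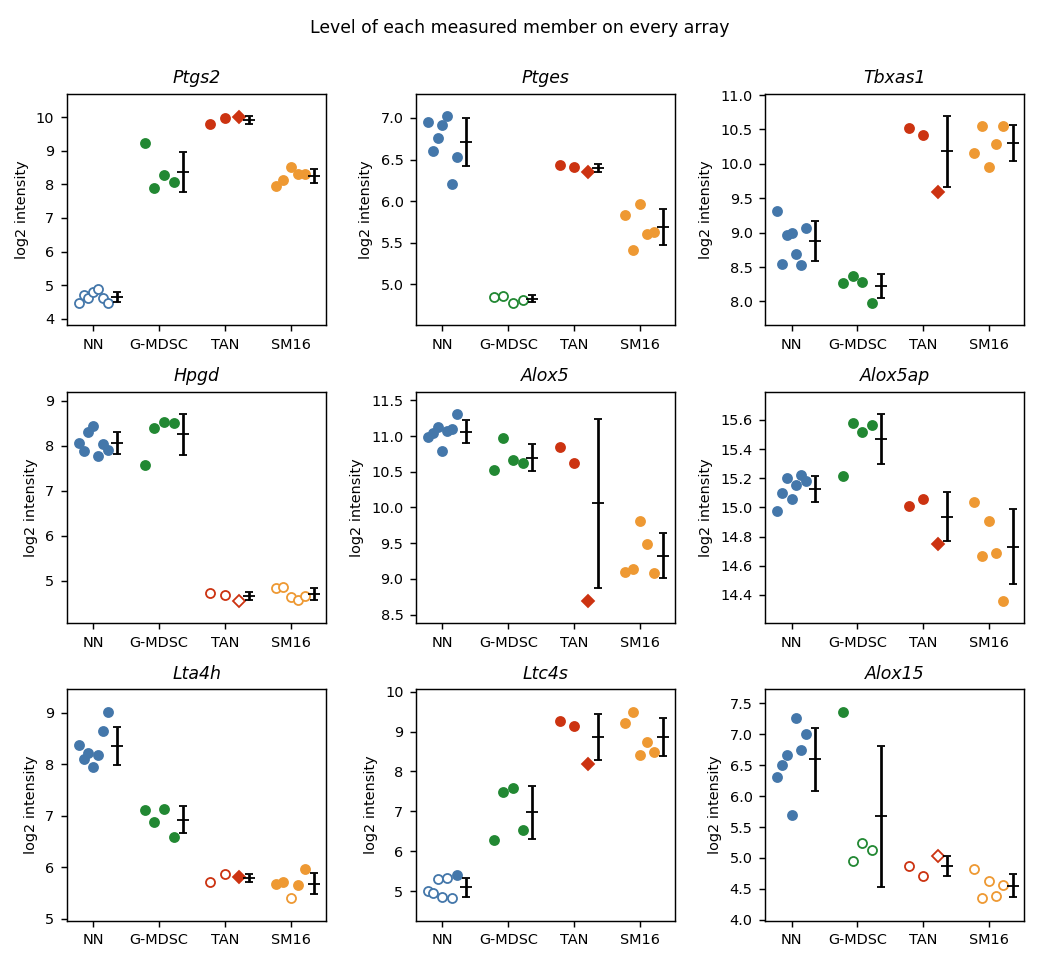
Log2 intensity of the probe that represents each of the 9 genes on every array, by group. Filled symbols were detected on that array and open symbols were not, the diamond is TAN replicate 4, and black bars give the mean and SD; each panel has its own axis. The Ptgs2 panel shows 7 open NN points below 5, and the Hpgd panel 8 open points for TAN and SM16.

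Ptges encodes the microsomal prostaglandin E synthase that often works with Ptgs2, yet its pattern across the groups was another. NN levels ran from 6.20 through a median of 6.76 to 7.02. The 4 G-MDSC arrays read 4.85, 4.87, 4.78 and 4.81, none of them detected. TAN arrays read 6.44, 6.41 and 6.35, and SM16 arrays 5.84, 5.41, 5.97, 5.61 and 5.63. SM16 lay below TAN on every array, G-MDSC lay below all other groups, and TAN lay within the NN range. Ptges in SM16 was at least 1.22-fold above the undetected G-MDSC (limma adjusted p = 0.000219), a call lost in 1 of the 20 alternatives run.

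Ptges was lower in SM16 than in TAN by 0.71 ± 0.19 (SE), a 1.63-fold difference (limma adjusted p = 0.00508). Its size was -0.66 with TAN replicate 4 alone but it was then not called (adjusted p = 0.208), nor was it with median scaling in place of quantile normalization (-0.34, adjusted p = 0.118). G-MDSC fell at least 2.48-fold below NN (limma adjusted p = 5.88e-09), and SM16 fell by 1.02 ± 0.15 from NN (adjusted p = 4.74e-06). TAN minus NN was not called (-0.31, limma adjusted p = 0.122), although among the arrays of the set with higher lowest signal Ptges differed by -0.45 (adjusted p = 0.0333). The gene's second probe was detected on 1 of the 19 arrays and was not tested. Ptgs2 and Ptges thus both read lower after SM16, while against NN they moved in opposite directions in G-MDSC and in SM16.

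Tbxas1 makes thromboxane A2 and had 2 probes whose results differed on the TAN arrays. With the brightest probe, NN levels ran from 8.53 through a median of 8.97 to 9.32, and G-MDSC arrays read 8.27, 8.37, 8.28 and 7.98. TAN arrays read 10.53, 10.42 and 9.59, and SM16 arrays 10.16, 10.55, 9.95, 10.29 and 10.55. TAN and SM16 lay above NN and G-MDSC without overlap. The rise over NN was 1.30 ± 0.21 (SE) in TAN (limma adjusted p = 1.42e-05) and 1.42 ± 0.18 in SM16 (adjusted p = 4.81e-07).

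The other Tbxas1 probe read 7.56 and 7.67 on TAN replicates 1 and 2, below all NN arrays, and 9.84 on TAN replicate 4, above them. Its TAN minus NN difference was -0.40 (limma adjusted p = 0.313), and its SM16 minus TAN difference was 1.89 (adjusted p = 0.000810), where the brightest probe gave 0.12 (adjusted p = 0.682). On SM16 arrays both probes lay above NN. The higher level of Tbxas1 in SM16 is therefore shown by both probes, and that in TAN by both on TAN replicate 4 only. G-MDSC lay below NN by 0.65 ± 0.19 (limma adjusted p = 0.00757), a call lost with median scaling (-0.35, adjusted p = 0.232), with the array set as a block (-0.57, adjusted p = 0.111) and with the other Tbxas1 probe (-0.73, adjusted p = 0.0700).

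**Figure D3:**
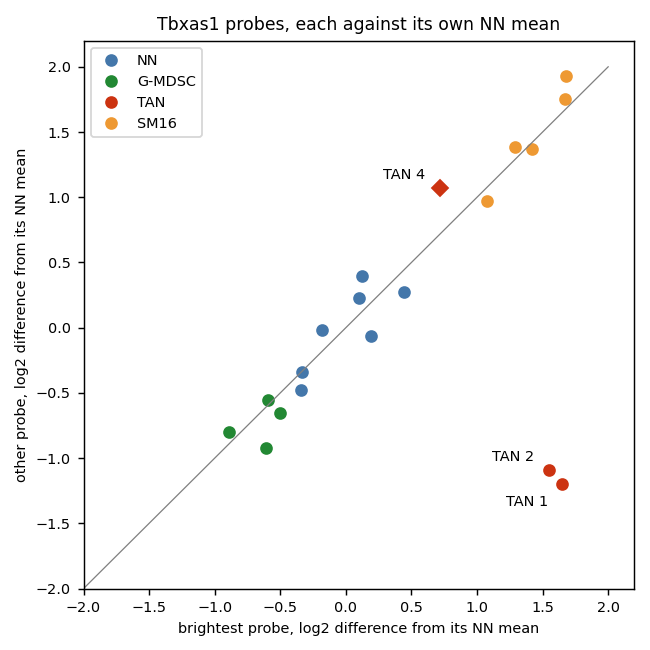
Log2 difference of each array from the NN mean of the same probe, for the brightest Tbxas1 probe (horizontal) and the other Tbxas1 probe (vertical), with a point per array, colours for groups, a diamond for TAN replicate 4 and a grey line of equal differences. TAN replicates 1 and 2 lie at 1.65 and 1.55 on the horizontal axis and at -1.20 and -1.09 on the vertical axis, while TAN replicate 4 lies at 0.72 and 1.07 and the 5 SM16 arrays are above 0 on both.

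Hpgd, which oxidizes prostaglandins to inactive products, was present in marrow and spleen and not detected in the tumour. NN levels ran from 7.78 through a median of 8.05 to 8.44, and G-MDSC arrays read 7.58, 8.40, 8.53 and 8.51. TAN arrays read 4.73, 4.68 and 4.56, and SM16 arrays lay between 4.57 and 4.86, with 0 of 8 arrays detected. Hpgd was thus at least 4.6-fold lower in TAN than in NN (limma adjusted p = 1.19e-11) and at least 6.50-fold lower in SM16 (adjusted p = 6.84e-13). Against G-MDSC the falls were at least 5.27-fold in TAN (limma adjusted p = 1.25e-10) and at least 7.44-fold in SM16 (adjusted p = 1.24e-11). G-MDSC and NN were not told apart (difference 0.20, 95% confidence interval -0.18 to 0.58, limma adjusted p = 0.401). Without G-MDSC replicate 1, which read lowest, Hpgd was called higher in G-MDSC by 0.42 (adjusted p = 0.0380).

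Alox5, the 5-lipoxygenase that starts leukotriene synthesis, was detected on all 19 arrays. NN levels ran from 10.79 through a median of 11.07 to 11.31, and G-MDSC arrays read 10.53, 10.97, 10.67 and 10.62. SM16 arrays read 9.10, 9.14, 9.81, 9.49 and 9.08, all below every NN and G-MDSC array. TAN arrays did not agree among themselves, with 10.85 and 10.63 on replicates 1 and 2 and 8.70 on replicate 4.

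In SM16, Alox5 was 3.33-fold lower than in NN (difference -1.74 ± 0.26, SE, limma adjusted p = 5.48e-06) and 2.59-fold lower than in G-MDSC (adjusted p = 0.000476). TAN minus NN was -1.0 ± 0.30 (limma adjusted p = 0.00627), but without TAN replicate 4 it was -0.32 and not called (adjusted p = 0.0996). SM16 minus TAN was not called (-0.73, limma adjusted p = 0.0678) and ranged with the TAN arrays used, from -1.41 without TAN replicate 4 (adjusted p = 1.61e-06) to 0.63 with that replicate alone (adjusted p = 0.153). These arrays therefore do not settle how Alox5 in TAN relates to SM16. SM16 minus G-MDSC kept its direction with the array set as a block (-1.17) but was not called there (adjusted p = 0.0633). G-MDSC minus NN was not called (-0.36, limma adjusted p = 0.295). It turned to 0.08 with median scaling, and was called in a fit of only these groups (adjusted p = 0.0119) and within the array set that holds both (-0.51, adjusted p = 0.0369).

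Alox5ap encodes the protein that presents arachidonic acid to 5-lipoxygenase. Its probe was bright on every array, at 26.5% to 57.8% of the array's highest signal in NN, TAN and SM16 and at 71.6% to 85.3% in G-MDSC, so differences at the upper end can be compressed. NN levels ran from 14.98 through a median of 15.15 to 15.22. G-MDSC arrays read 15.22, 15.58, 15.52 and 15.57, TAN arrays 15.01, 15.06 and 14.75, and SM16 arrays 15.04, 14.66, 14.91, 14.69 and 14.36. The whole range over 19 arrays was narrow beside that of the other genes.

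Alox5ap was lower in SM16 than in NN by 0.40 ± 0.11 (SE), a 1.32-fold difference (limma adjusted p = 0.00251), though not with median scaling (-0.31, adjusted p = 0.0668). It was 1.67-fold lower in SM16 than in G-MDSC (limma adjusted p = 2.81e-05) and 1.45-fold lower in TAN than in G-MDSC (adjusted p = 0.00229), the latter not called with the array set as a block (adjusted p = 0.102). The higher level in G-MDSC than in NN was 0.34 ± 0.11 (limma adjusted p = 0.0172). Within the array set that holds both groups, Alox5ap differed by 0.27 and was not called (adjusted p = 0.151), and leaving out G-MDSC replicate 2 or 4 also ended the call (adjusted p = 0.0596 and 0.0580). TAN minus NN was not called (-0.19, 95% confidence interval -0.45 to 0.07).

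The enzymes below leukotriene A4 moved apart. Lta4h, the hydrolase that makes leukotriene B4, fell from NN to G-MDSC and further to the tumour. NN levels ran from 7.96 through a median of 8.21 to 9.02, and G-MDSC levels from 6.59 to 7.14. TAN arrays read 5.72, 5.86 and 5.81 with 1 of 3 detected, and SM16 arrays lay between 5.4 and 5.97 with 4 of 5 detected. NN, G-MDSC and the tumour groups did not overlap, while TAN lay within the SM16 range.

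Lta4h was 2.70-fold lower in G-MDSC than in NN (difference -1.43 ± 0.19, SE, limma adjusted p = 2.72e-06), 5.90-fold lower in TAN (adjusted p = 1.63e-09) and 6.38-fold lower in SM16 (adjusted p = 4.28e-11). With 1 of 3 TAN and 4 of 5 SM16 arrays detected, the size of differences with these groups is limited by the background. TAN and SM16 lay below G-MDSC by 1.13 and 1.24 (limma adjusted p = 0.000305 and 2.71e-05). With the array set as a block these Lta4h differences were -0.46 and -0.57 and not called (adjusted p = 0.185 and 0.0863). The second probe had the same order against NN, with means of 6.56 in NN, 5.63 in G-MDSC, 4.65 in TAN and 4.83 in SM16, and was not detected on any tumour array. SM16 minus TAN was not called (-0.11, 95% confidence interval -0.57 to 0.35).

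Ltc4s, which joins leukotriene A4 to glutathione, ran the other way. It was detected on 1 of 7 NN arrays, whose levels ran from 4.82 through a median of 5.00 to 5.39. G-MDSC arrays read 6.28, 7.49, 7.60 and 6.53, TAN arrays 9.26, 9.13 and 8.19, and SM16 arrays 9.20, 9.50, 8.41, 8.73 and 8.49. Every array from a tumour-bearing mouse lay above every NN array, and every tumour array above every G-MDSC array.

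The rise over NN was 1.88 ± 0.28 (SE) in G-MDSC (limma adjusted p = 1.12e-05), 3.76 ± 0.31 in TAN (adjusted p = 1.64e-09) and 3.77 ± 0.26 in SM16 (adjusted p = 8.29e-11). With 1 of 7 NN arrays detected, the size of these rises is limited by the background. TAN and SM16 exceeded G-MDSC by 1.88 and 1.89 (limma adjusted p = 9.16e-05 and 1.85e-05). SM16 and TAN were not told apart (difference 0.01, 95% confidence interval -0.67 to 0.68). Of the 8 macrophage markers 5 were called higher and 1 lower than NN in TAN. In SM16 7 were higher and 0 lower, and in G-MDSC 3 and 0. Of all genes 39.3%, 32.9% and 22.5% were called higher in TAN, SM16 and G-MDSC, and 30.0%, 31.7% and 23.5% lower. The G-MDSC marker sum of 6694 to 8720 lay within the NN range of 5981 to 12722. On TAN replicates 1, 2 and 4 the sum was 19525, 25288 and 73618, where Ltc4s read 9.26, 9.13 and 8.19. The part of the macrophage markers in the Ltc4s values was not tested.

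Alox15, the 12/15-lipoxygenase known in mice from macrophages and eosinophils, was detected on all 7 NN arrays, at levels from 5.69 through a median of 6.66 to 7.27. G-MDSC arrays read 7.36, 4.95, 5.24 and 5.13, with replicate 1 alone detected. None of the 3 TAN arrays (4.87, 4.70 and 5.02) or the 5 SM16 arrays (4.35 to 4.82) was detected. TAN was at least 1.67-fold below NN (limma adjusted p = 0.000548) and SM16 at least 2.35-fold (adjusted p = 1.48e-05).

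Alox15 in G-MDSC minus NN was -0.92 ± 0.35 (SE, limma adjusted p = 0.0367), a call lost in 15 of the 23 alternatives run. The sum of the 8 eosinophil, basophil and mast cell markers was also highest in NN, at 17612 to 32370 against at most 1075 elsewhere, and G-MDSC replicate 1 had the 1075 where the other G-MDSC arrays had 208 to 333. In NN 94.3% to 95.8% of that sum was Prg2, an eosinophil granule protein, whose mean level was 14.40 in NN and 7.32, 6.21 and 5.69 in G-MDSC, TAN and SM16. Of the 8 markers 6 were called lower and 0 higher in G-MDSC than in NN, 6 lower and 1 higher in TAN, and 7 lower and 0 higher in SM16. Of all genes 23.5%, 30.0% and 31.7% were called lower in these comparisons. The summed macrophage markers were instead higher in SM16 (86120 to 146619) and TAN (19525 to 73618) than in NN (5981 to 12722). In G-MDSC they were 6694 to 8720. The part of eosinophils, basophils, mast cells and macrophages in the Alox15 values was not tested.

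Between SM16 and TAN the list splits into genes whose difference was the same with either choice of TAN arrays and genes whose difference was not. Ptgs2 and Ptges differed by -1.68 and -0.71 with all 3 TAN arrays and by -1.76 and -0.66 with TAN replicate 4 alone. Alox5 went from -0.73 to 0.63. Ltc4s and Tbxas1 went from 0.01 and 0.12 to 0.68 and 0.71, not called in either fit. For Alox5ap and Lta4h both values lay between -0.21 and -0.02. Hpgd and Alox15 were undetected in both groups, so no difference could be measured. With TAN replicate 4 alone 451 of all genes were called in place of 4380, and the lone array was assumed to vary like the others.

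**Figure D4:**
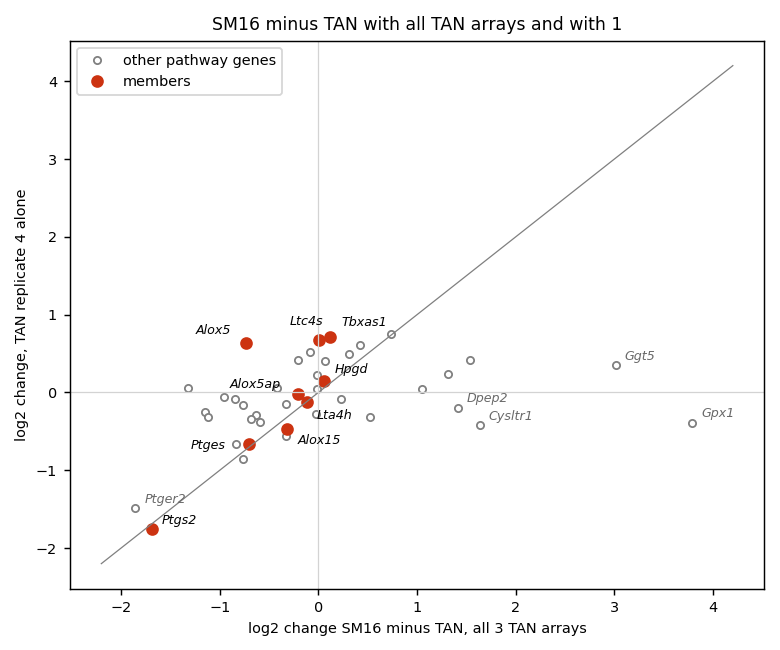
Log2 difference SM16 minus TAN with all 3 TAN arrays (horizontal) and with TAN replicate 4 as the only TAN array (vertical), for the 9 genes (red) and the other pathway genes tested (grey, open), with a line of equal values. Ptgs2 and Ptger2 lie at the lower left near the line, and Gpx1, Ggt5, Cysltr1 and Dpep2 lie to the right at vertical values between -0.42 and 0.35.

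The rest of the pathway was described by 5 further lists of genes. Of the 10 genes that release arachidonic acid or process phospholipids, 6 were tested. In TAN and SM16 3 of the 6 were higher than NN and 0 lower, where 39.3% and 32.9% of all genes were called higher and 30.0% and 31.7% lower. The TAN count includes Pla2g2e, which was detected on no NN or TAN array. In G-MDSC 2 were higher and 1 lower, against 22.5% and 23.5% of all genes. Pla2g15, a lysosomal phospholipase, rose by 0.87 in G-MDSC, 2.0 in TAN and 1.99 in SM16 (limma adjusted p = 1.87e-07, 1.65e-12 and 7.23e-14). Pla2g7, the plasma platelet-activating factor acetylhydrolase, rose by 1.80, 1.37 and 1.42 (adjusted p = 2.58e-10, 3.07e-08 and 1.11e-09). Pla2g12a fell by 1.19 in G-MDSC (limma adjusted p = 0.000108). In SM16 minus TAN 2 were higher and 0 lower, where 17.8% of all genes were called higher and 28.2% lower. The 2 were Pla2g6, whose difference went from 1.05 to 0.04 with TAN replicate 4 alone, and Pla2g2e, undetected in TAN. Pla2g2e differed by 0.73 (limma adjusted p = 0.0224), and by 0.75 with that array alone, a size without a spread of its own.

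Of 9 other prostanoid synthases and reductases 6 were tested. In TAN and SM16 4 were higher than NN and 1 lower, where 69.3% and 64.5% of all genes were called, and in G-MDSC 2 and 2, where 45.9% were. Cbr3, a carbonyl reductase, had the largest rise, 3.72 ± 0.15 (SE) in G-MDSC, 3.58 ± 0.17 in TAN and 2.94 ± 0.14 in SM16 (limma adjusted p = 1.57e-13, 4.36e-13 and 3.67e-13). NN levels of Cbr3 ran from 7.21 to 7.81 and those of the other groups from 10.17 to 11.31, without overlap. Ptges2, a second prostaglandin E synthase, fell by 1.05 in G-MDSC and by 1.43 in SM16 (limma adjusted p = 2.46e-05 and 8.04e-08). Hpgds, the hematopoietic prostaglandin D synthase, rose by 2.03 in SM16 over NN (limma adjusted p = 1.04e-06). In SM16 minus TAN Hpgds differed by 1.53 (adjusted p = 0.00132) but by 0.42 with TAN replicate 4 alone (adjusted p = 0.613).

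Among 9 other lipoxygenases and cofactors 6 were tested, and 0 rose against NN in any group, while 5 fell in TAN, 4 in SM16 and 3 in G-MDSC. Of all genes 30.0%, 31.7% and 23.5% were called lower in these comparisons. Alox12, the platelet-type 12-lipoxygenase, had an NN mean of 11.40 ± 0.65 (SD, n = 7) and was undetected in TAN, at least 46.4-fold lower (limma adjusted p = 4.02e-13). Alox12 was also called lower in G-MDSC and SM16 (adjusted p = 1.16e-12 and 3.72e-14), where it was detected on 2 of 4 and 1 of 5 arrays, so the size of these falls is limited by the background. Of the 7 platelet markers all 7 were called lower than NN in G-MDSC, 6 lower and 0 higher in TAN, and 6 lower and 1 higher in SM16. In TAN and SM16 93.6% to 97.6% of their sum was Pf4, a platelet chemokine that macrophages can also express, whose mean level was 12.60 in NN and TAN, 13.76 in SM16 and 6.28 in G-MDSC. Their part in the Alox12 values was not tested. Anxa1, an inhibitor of phospholipase action and of neutrophil recruitment, fell in all 3 groups, with differences from NN of -1.18 in G-MDSC, -3.36 in TAN and -3.39 in SM16 (limma adjusted p = 1.58e-05, 1.06e-11 and 4.38e-13). Gpx1, a glutathione peroxidase, differed by -4.83 in TAN minus NN (limma adjusted p = 2.73e-05) but by -0.65 with TAN replicate 4 alone (adjusted p = 0.0210). For Gpx1 the SM16 minus TAN difference of 3.79 became -0.39 in the same way.

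Of 14 genes that transport or degrade these lipids 9 were tested, 4 higher and 4 lower in TAN than in NN, 2 and 4 in SM16, and 3 and 5 in G-MDSC, where 69.3%, 64.5% and 45.9% of all genes were called. Dpep2 encodes a dipeptidase that turns leukotriene D4 into E4, and was undetected on all 7 NN arrays. The G-MDSC arrays read 7.33, 7.94, 7.89 and 8.12, the TAN arrays 8.75, 9.06 and 11.32, and the SM16 arrays lay between 10.53 and 11.66. Relative to NN, Dpep2 was at least 5.18-fold higher in G-MDSC, 19.3-fold in TAN and 51.3-fold in SM16 (limma adjusted p = 3.83e-07, 6.99e-10 and 6.55e-13). The SM16 minus TAN difference of 1.41 (limma adjusted p = 0.00790) became -0.20 with TAN replicate 4 alone. Mgst2, a microsomal glutathione transferase able to make leukotriene C4, fell in all 3 groups, with differences of -2.59 in G-MDSC, -4.17 in TAN and -5.29 in SM16 (limma adjusted p = 2.37e-08, 4.20e-11 and 4.91e-14), so in these arrays it ran opposite to Ltc4s. Mgst3 fell by 3.87 in G-MDSC and Mgst1 fell by 2.83 in TAN and fell by 2.31 in SM16 (limma adjusted p = 2.50e-12, 5.89e-10 and 7.12e-10). Ggt5, which turns leukotriene C4 into D4, was detected on 1 of 3 TAN arrays and on all 5 SM16 arrays, and its SM16 minus TAN difference of 3.01 became 0.35 with TAN replicate 4 alone.

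**Figure D5:**
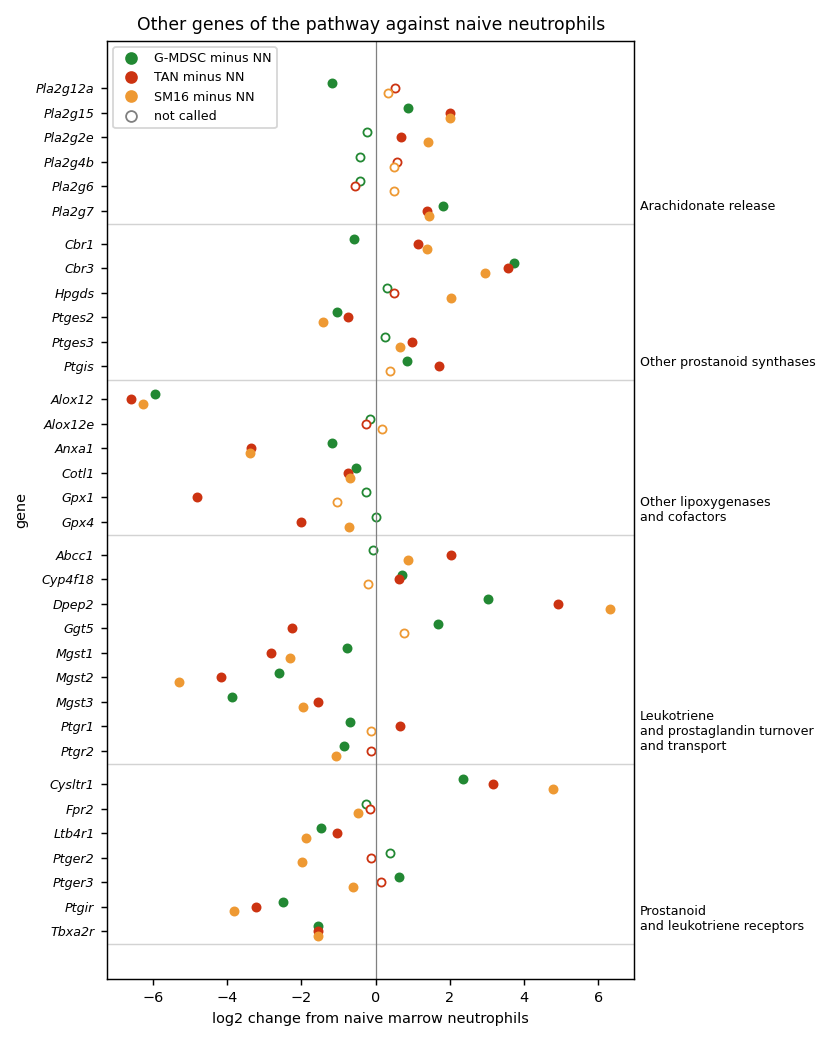
Log2 difference of G-MDSC, TAN and SM16 from NN for the other genes of the pathway, in 5 lists named at the right; filled points were called and open points were not. Dpep2 and Cysltr1 lie farthest to the right and Alox12 farthest to the left, but their positions are fitted values and no bounds, since Dpep2 and Cysltr1 were not detected in NN and Alox12 was not detected in TAN.

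Of 15 receptors 7 were tested. Against NN 1 rose and 6 fell in SM16, 1 rose and 3 fell in TAN, and 2 rose and 3 fell in G-MDSC, beside 64.5%, 69.3% and 45.9% of all genes called. Cysltr1, the receptor for leukotriene D4, was undetected in NN and at least 3.53-fold higher in G-MDSC, 6.17-fold in TAN and 19.1-fold in SM16 (limma adjusted p = 0.000314, 1.92e-05 and 5.87e-09). TAN replicates 1, 2 and 4 read 6.81, 7.28 and 10.13, and the 5 SM16 arrays 9.24 to 10.19. With TAN replicate 4 alone the SM16 minus TAN difference of Cysltr1 went from 1.63 to -0.42. Ptgir, the prostacyclin receptor, fell in all 3 groups, with differences of -2.49 in G-MDSC, -3.22 in TAN and -3.82 in SM16 (limma adjusted p = 4.00e-10, 1.68e-11 and 5.37e-14). Tbxa2r, the thromboxane receptor, was detected on all 7 NN arrays and on no TAN or SM16 array, at least 1.76-fold lower in TAN and 2.48-fold in SM16 (limma adjusted p = 0.000199 and 2.92e-05). It was also called lower in G-MDSC (adjusted p = 0.000121), with 1 of 4 arrays detected.

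Among the receptors tested, the largest difference between SM16 and TAN was that of Ptger2, the EP2 receptor for prostaglandin E2. TAN replicates 1, 2 and 4 read 8.28, 7.91 and 7.54, and SM16 arrays 6.06, 5.57, 6.12, 6.42 and 6.09, without overlap. The difference was -1.86 ± 0.20 (SE, limma adjusted p = 3.76e-06), and -1.49 with TAN replicate 4 alone, still called (adjusted p = 0.00483). Between these groups 23.6% of all genes had no overlap. Ltb4r1, the high-affinity receptor for leukotriene B4, was lower in SM16 than in TAN by 0.83 ± 0.20 (limma adjusted p = 0.00257), and by 0.67 with TAN replicate 4 alone, not called (adjusted p = 0.226). Ptgs2 and Ptger2 were thus called lower after SM16 in the fit with 3 TAN arrays, as were 28.2% of all genes. Both kept that direction with TAN replicate 4 as the only TAN array.

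Over the 19 arrays the genes whose levels ran most like Ptgs2 were Zc3h12a, Zfp36l1 and H2-DMb1, with Pearson r of 0.988, 0.984 and 0.979. For Ptges they were Tmem63a, Tnnc1 and Pgp (r = 0.960, 0.952 and 0.950), for Alox15 Fcrla, Vpreb3 and Pou2af1 (r = 0.922, 0.913 and 0.909) and for Alox5ap Lins1, Cir1 and Cpd (r = 0.929, 0.926 and 0.922). These correlations are across arrays that fall into 4 groups and share array sets, so they describe mainly the differences between groups, and no test was made.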

How the data were processed

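Per the labels, the neutrophil RNA carried a biotin label. The labels' treatment and extraction protocols describe tissue biopsies, not neutrophils, and were not used. The deposited signal table holds 1 linear intensity and 1 detection p-value per probe and array, with GenomeStudio (version not stated) named in the submitters' processing notes. A second deposited intensity table of 17004 probes, normalized by the authors, served as an alternative.

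Background correction and quantile normalization used limma 3.58.1 (neqc, offset 16) under R 4.3.3. The filter asked for a detection p under 0.01 on at least 3 arrays and left 13945 probes, 13088 with a gene symbol. The brightest probe stood for each gene. A single limma fit over the 4 groups (15 residual degrees of freedom, variance trend) gave 6 comparisons, with Benjamini-Hochberg adjustment over 9523 genes. The fit was tested on simulated data. Named were all 10 listed genes and, from each other list, the 3 called genes with the largest change in each comparison, or some of them. For 4 of the 10, the 3 genes with the highest correlation were also named. The genes and lists were chosen with earlier results of these data known. Alternatives changed background correction, normalization, filter, offset, probe choice, fit, weights, array set and arrays left out. Promoter windows were read from RefSeq (GRCm38.p6).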

Additional observations from a re-analysis of the deposited data

Results flagged for a closer look

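Among 27 combinations of a gene and a group of 4 or more arrays, 2 held an array far from the rest, and chance alone flags about 1 in 20. Both were G-MDSC replicate 1. Its Alox15 level of 7.36 lay above the 4.95 to 5.24 of the other 3 arrays, a gap of 0.878 of the group's range, above the critical value of Dixon's test for 4 values. Its Hpgd level of 7.58 lay below the others' 8.40 to 8.53, a gap of 0.858 of the range. The same array had the highest Ptgs2 level of its group (9.24 against 7.89 to 8.28) and the highest summed eosinophil, basophil and mast cell markers (1075 against 208 to 333).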

How the results depend on the processing

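Over 54 gene comparisons and 1182 alternative values, 1104 kept direction and side of the threshold, 37 lost the call, 21 gained it and 20 changed sign. In 27 comparisons every alternative run kept both. The causes of the changes were not tested. With the array set as a block 4 genes were called in G-MDSC minus NN (in place of 7) and 4 in SM16 minus G-MDSC (in place of 8). In SM16 minus TAN 1 gene was called with median scaling, 4 with array weights and 1 with TAN replicate 4 alone (in place of 2). Leaving out an array in turn gave 5 to 8 genes in G-MDSC minus NN, 7 to 8 in SM16 minus G-MDSC, 9 to 9 in SM16 minus NN, 2 to 3 in SM16 minus TAN, 7 to 8 in TAN minus G-MDSC and 6 to 8 in TAN minus NN.

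Sign changes with median scaling were Alox5 in G-MDSC minus NN (0.076), Alox5ap in TAN minus NN (0.13), and in SM16 minus TAN Hpgd (-0.094), Lta4h (0.11) and Tbxas1 (-0.074). In SM16 minus TAN, Lta4h also changed sign with the mean of all probes (0.033) and with its other probe (0.18), and Tbxas1 with array weights (-0.10) and without TAN replicate 4 (-0.17, with arrays left out in turn giving up to 0.29). For Ltc4s there the values were -0.0034 with the authors' table, -0.016 with the replicate block, -0.23 with array weights, -0.33 without TAN replicate 4, -0.08 without SM16 replicate 1 and -0.15 without SM16 replicate 2 (up to 0.21 with other arrays left out). Alox5 was 0.63 in SM16 minus TAN with TAN replicate 4 alone and 0.041 in TAN minus G-MDSC without it, where leaving out other arrays gave down to -1.04. Ptgs2 in SM16 minus G-MDSC was 0.13 with array weights and 0.16 without G-MDSC replicate 1 (down to -0.29 with others left out). Tbxas1 in TAN minus NN was -0.40 with its other probe, an alternative chosen after seeing the data. None of the values with a changed sign was called.

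Of all genes, SM16 minus TAN called 4380, against 2365 in a fit of these groups only, 7461 with array weights, 451 with TAN replicate 4 alone, 2276 without TAN replicate 1 and 2424 without TAN replicate 2. With the array set as a block 3649 were called in SM16 minus G-MDSC (in place of 5946) and 3885 in TAN minus G-MDSC (in place of 6022). Median scaling moved the median difference of all genes from 0.19 to 0.08 in TAN minus NN, from -0.03 to 0.21 in G-MDSC minus NN, from 0.19 to -0.15 in TAN minus G-MDSC and from 0.05 to -0.28 in SM16 minus G-MDSC. Deviations of 22 same-numbered pairs of arrays correlated at -0.26 to 0.20, with 6 over 0.1. Those of 109 different-numbered pairs correlated at -0.33 to 0.31, with 26 over 0.1. With few arrays per group and 2 array sets, these values cannot settle whether the numbers pair the samples. With the replicate block 7 genes were called in TAN minus NN, 9 in SM16 minus NN, 5 in G-MDSC minus NN, 2 in SM16 minus TAN, 7 in TAN minus G-MDSC and 8 in SM16 minus G-MDSC. Levels near 5 lie at or below the limit of detection, which differed between arrays. Levels of 5.97 (Pla2g4b, TAN replicate 1) and 5.92 (Hpgds, TAN replicate 2) were not detected, while 5.41 (Ptges, SM16 replicate 2) was. Differences between undetected groups could not be measured.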
